A study of Arabidopsis thaliana with 16 samples.

Results

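The response to gibberellin A3 (GA3) was measured in wild type Arabidopsis thaliana seedlings that had also received the cytokinin benzyladenine (BA). Of the 16 arrays of the series 4 bear on it, chosen by their labels as the Columbia-0 arrays with BA: 2 with paclobutrazol (PAC) and GA3, called PAC+GA3+BA, and 2 with PAC alone before BA, called PAC+BA. Seedlings grown on plates in continuous light were moved to liquid medium at 5 days and are labelled as 6-day-old seedlings, and RNA came from the whole plant. Both groups were given 10 µM PAC for 18 h and 5 µM BA for 3 h, so they differed only in 50 µM GA3, which accompanied PAC. Comparisons were drawn with untreated Columbia-0 (2 arrays) and with the line 35S::ARR1ΔDDK:GR. That line carries, under a promoter active in most tissues, the response regulator ARR1 without its inhibitory domain and fused to the glucocorticoid receptor, which dexamethasone (DEX) activates. Its seedlings received PAC or PAC with GA3 at the same doses, without DEX or with 5 µM DEX for 3 h, on 2 arrays each. Columbia-0 given only 5 µM DEX for 3 h, on 2 arrays, is cited for some genes. Replicates are labelled biological without further detail, so the tests reflect the spread among these arrays alone, part of which may be technical.

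Gibberellins promote cell elongation and act by triggering degradation of the DELLA proteins, nuclear regulators that otherwise restrain growth. PAC blocks gibberellin synthesis, so DELLA proteins accumulate in its presence, and added GA3 removes them again. Cytokinins signal through a phosphorelay that ends in type-B response regulators such as ARR1, which switch on the type-A response regulators, and DELLA proteins can act with the type-B regulators on their target genes. The comparison asks how the transcriptome differs between seedlings with and without DELLA accumulation when cytokinin is present in both.

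Levels are log2 GCRMA values per probe set, and an interval or standard error (SE) comes from a limma fit across all 16 arrays. Of 22746 probe sets, 9454 reached a log2 value of 4 on at least 2 arrays and were tested. Replicates were less alike in PAC+BA than in PAC+GA3+BA: 270 probe sets differed by at least 2-fold between the PAC+BA replicates and 97 between the PAC+GA3+BA replicates, against 87 to 288 in the other 6 groups. PAC+BA replicate 2 lay farther from the GA3 arrays than replicate 1 for many genes below. For this reason many differences below are followed by their value without 1 of these arrays. The array that then remains in its group has no replicate, and limma lends it the spread of the other groups. The leaf gene RCA, which encodes the activase of the carbon-fixing enzyme Rubisco, read 10.38 and 10.18 in PAC+BA and 10.12 and 10.43 in PAC+GA3+BA. The root β-glucosidase PYK10 read 11.28 and 10.70 against 11.25 and 11.51. Both organs were thus represented on all 4 arrays, each by the 1 gene of its marker list that was tested, and the groups overlapped for both genes. In whole seedlings, fewer cells of a type and less RNA per cell cannot be told apart.

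With GA3, 1 probe set rose and 2 fell at an adjusted p under 0.05 (limma, Benjamini-Hochberg), 3 of 9454 or 0.0317% (0.0106% higher and 0.0212% lower). Changes over all probe sets ran from -2.46 to 2.09 with a median of 0.04, and the median 95% interval of a difference reached 0.44 log2 units to each side. Without adjustment 1013 probe sets, 10.7%, had p under 0.05, of which 585 were higher (6.19%) and 428 lower (4.53%) with GA3. That split, 57.7% higher, became 49.7% after quantile normalization and 37.6% after centring on the 75th percentile, so the direction in which the unadjusted calls leaned depended on the scaling. The arrays of the groups did not overlap for 3982 probe sets, 42.1% (23.2% higher and 18.9% lower), and 71 (0.751%) differed by at least 2-fold. Counts of group members below are to be read against these shares.

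Each of the 3 called probe sets lacks a gene name in the annotation used here and is given by its identifier. Probe set 261428_at read 4.18 and 3.78 in PAC+BA and 5.42 and 5.59 in PAC+GA3+BA. It rose by 1.52 ± 0.19 (SE), 2.87-fold, with an adjusted p of 0.0217 (limma). Both GA3 arrays lay above every other array of the groups described. Untreated seedlings read 3.28 and 3.28, Columbia-0 with DEX alone 4.12 and 4.63, and the line 3.08 to 4.07. Probe set 261768_at read 4.86 and 5.48 without GA3 and 2.84 and 2.91 with it. It changed by -2.30 ± 0.30, or 4.92-fold lower, with an adjusted p of 0.0217 (limma), and untreated seedlings, at 4.16 and 5.06, overlapped PAC+BA. Probe set 257008_at read 7.93 and 7.79 in PAC+BA and 6.48 and 6.39 in PAC+GA3+BA, a change of -1.43 ± 0.21, 2.69-fold lower, with an adjusted p of 0.0423 (limma). Its untreated values were higher still, 8.95 and 9.18. The 2 probe sets that fell with GA3 in BA-treated wild type were also lower with GA3 in the line without DEX. Their limma estimates there were -2.24 (adjusted p = 0.0095) and -1.90 (adjusted p = 0.003). The limma estimates in the line with DEX were -1.68 and -1.07, each with an adjusted p of 0.13. Probe set 261428_at gave 0.39 in the line without DEX (limma, adjusted p = 0.357) and 0.14 with DEX (limma, adjusted p = 0.859). Its differences between backgrounds were 1.13, with a limma p of 0.0012 before and 0.303 after adjustment, and 1.38, with 0.000236 and 0.553.

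These calls rested on the exact set of arrays. When 1 array is left out its group keeps 1 array, and the spread comes from the other groups. The counts that follow therefore only describe this dependence. Without PAC+BA replicate 1, 173 probe sets were called, 128 higher and 45 lower, with the 3 above among them. Without PAC+BA replicate 2, without PAC+GA3+BA replicate 1 or without PAC+GA3+BA replicate 2 none was called by limma, although 282, 654 and 667 had an unadjusted p under 0.05. The size of the 3 changes moved less: without PAC+BA replicate 2 they were 1.32 for 261428_at, -1.99 for 261768_at and -1.50 for 257008_at.

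**Figure D1:**
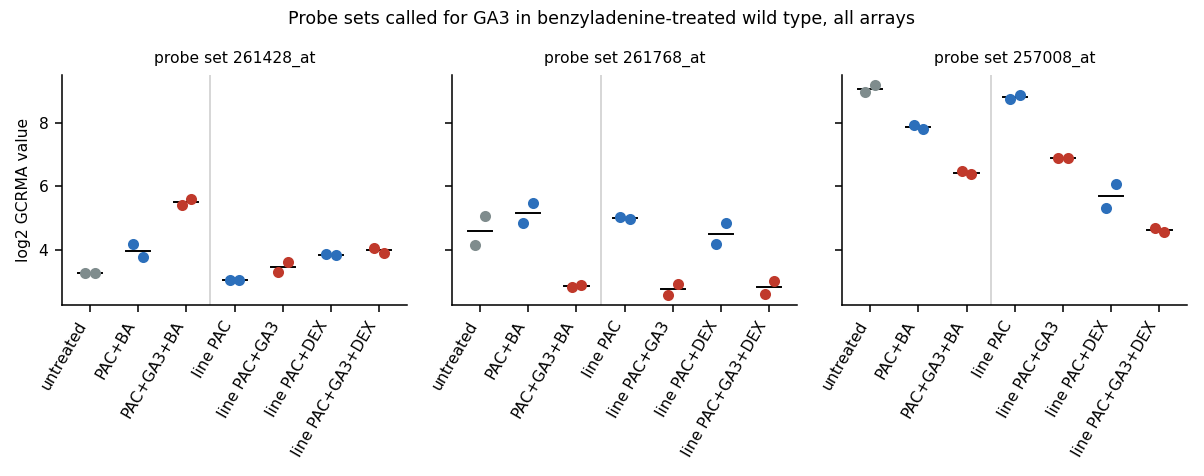
Log2 GCRMA value on each array for the 3 probe sets called for GA3 in wild type with BA; points are arrays, bars are group means, and groups from left to right are untreated wild type, PAC+BA, PAC+GA3+BA and the line with PAC, PAC+GA3, PAC+DEX and PAC+GA3+DEX. Probe set 261428_at is highest in PAC+GA3+BA, at 5.42 and 5.59, while 261768_at and 257008_at are lower with GA3 in each pair of groups.

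Among the gene lists the median farthest from 0 was that of phenylpropanoid and flavonoid synthesis, the pathway that makes flavonols and the anthocyanin pigments, of which 3 of 22 listed genes were tested. DFR encodes the reductase that opens the anthocyanin branch. It read 5.98 and 7.21 in PAC+BA and 5.30 and 4.22 in PAC+GA3+BA, so the groups did not overlap, though the replicates within each group also lay far apart. Its difference was -1.84 ± 0.81 (SE), with an unadjusted limma p of 0.0407. UF3GT, a glycosyltransferase that adds a sugar to anthocyanins, read 4.05 and 4.76 against 3.28 and 2.88, a difference of -1.33 ± 0.54. AT4G14090, the third member of the list, read 4.28 and 4.90 against 3.53 and 2.59, a difference of -1.53 ± 0.50 with an unadjusted limma p of 0.00896. All 3 members were lower with GA3 without overlap and none passed adjustment. Their median was -1.53, against 0.04 over all probe sets tested.

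The same genes differed in the same direction in the line, on arrays not shared with the wild type. DFR there read 6.12 and 5.97 in PAC and 2.79 and 4.87 in PAC+GA3, a difference of -2.21, and its difference with DEX was -2.96. The list's median was -1.61 in the line without DEX and -1.53 with DEX, and no member's limma test of the difference between backgrounds had an unadjusted p under 0.05. Untreated wild type spread widely for DFR, at 4.81 and 6.67, and lay within reach of either group. CHIL, a chalcone isomerase-like protein that aids an earlier step of the pathway, read 7.08 and 8.0 in PAC+BA and 6.65 and 6.72 in PAC+GA3+BA, a difference of -0.86 ± 0.32. UGT78D2, a flavonoid glucosyltransferase, read 7.53 and 7.55 against 7.32 and 6.89, a difference of -0.43 with an unadjusted limma p of 0.107 that came to -0.22 without PAC+GA3+BA replicate 2. Without PAC+BA replicate 2 the differences were -1.22 for DFR, -0.97 for UF3GT, -1.22 for AT4G14090 and -0.40 for CHIL, all still lower with GA3.

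Genes of gibberellin signalling and known DELLA targets were few on the named part of the array. SLY1 encodes the F-box protein that marks DELLA proteins for degradation. It read 3.50 and 4.62 in PAC+BA and 3.43 and 3.36 in PAC+GA3+BA, a difference of -0.66 ± 0.27 that came to -0.10 without PAC+BA replicate 2. SEC, an O-GlcNAc transferase that modifies DELLA proteins, read 4.44 and 4.20 against 4.74 and 4.34, and its groups overlapped. No gibberellin synthesis or inactivation gene, of 21 listed, had a probe set with a gene name.

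Of the 12 listed genes that DELLA proteins induce, 3 were tested, and all had a lower mean with GA3, with a median of -0.56. AT5G50915 read 4.46 and 5.43 in PAC+BA and 3.58 and 3.35 in PAC+GA3+BA, close to the untreated 2.93 and 3.57. Its difference was -1.48 ± 0.31, with an adjusted p of 0.226 (limma), and it was lower with GA3 in the line too, by limma estimates of -0.69 without DEX and -0.73 with it. AT2G31730 read 3.94 and 3.85 against 3.19 and 3.48, also without overlap but with an unadjusted limma p of 0.111. XERICO, a RING-type protein that raises abscisic acid levels, read 3.34 and 3.85 against 3.04 and 3.37, which overlapped, and the limma interval of its difference ran from -0.91 to 0.13.

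GASA peptides are small secreted proteins named for gibberellin-stimulated members of the family, and 3 of 14 listed genes were tested. AT2G14900 read 6.38 and 6.66 in PAC+BA and 5.94 and 6.12 in PAC+GA3+BA, a difference of -0.49 ± 0.18 with an unadjusted limma p of 0.0201. It was also lower with GA3 in the line, by -0.87 without DEX and -0.62 with it. AT1G22690 read 9.59 and 10.11 against 9.15 and 9.40, without overlap but with an unadjusted limma p of 0.0888. The third member, AT5G59845, had a difference of -0.01.

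The cell wall and its cytoskeletal guides gave small differences, mostly towards higher values with GA3. Xyloglucan endotransglucosylases cut and rejoin the hemicellulose that ties cellulose fibrils together, and all 6 tested, of 31 listed, had a higher mean with GA3, from 0.09 to 0.57 with a median of 0.29. XTH16 read 4.98 and 4.46 in PAC+BA and 5.46 and 5.12 in PAC+GA3+BA, nearer to the untreated 5.62 and 5.46. Its difference was 0.57 ± 0.23, with an unadjusted limma p of 0.0283 and an adjusted p of 0.435, and the line without DEX gave 0.65. Without PAC+BA replicate 2 it came to 0.31. XTH19 read 3.94 and 3.95 against 4.16 and 4.35, without overlap, and the limma interval of its difference ran from -0.04 to 0.66. The groups did not overlap for 3 of the 6.

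Of the list of cellulose synthesis genes and tubulins, 7 of 26 were tested and all had a higher mean with GA3, with a median of 0.19 that came to -0.01 without PAC+BA replicate 2, and 2 had an unadjusted limma p under 0.05. COB, a membrane-anchored protein that orients cellulose deposition in elongating cells, read 6.95 and 5.62 in PAC+BA and 7.04 and 7.31 in PAC+GA3+BA. Its difference was 0.89 ± 0.33 and came to 0.22 without PAC+BA replicate 2. TUA6, an alpha-tubulin, read 8.19 and 7.04 against 8.40 and 8.29, a difference of 0.73 ± 0.29 that came to 0.16 in the same way. For both genes PAC+BA replicate 2 was the one low array, below both untreated arrays as well. The expansins, which loosen walls, gave -0.26 to 0.24 for the 3 tested of 25 listed, with no unadjusted limma p under 0.05.

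**Figure D2:**
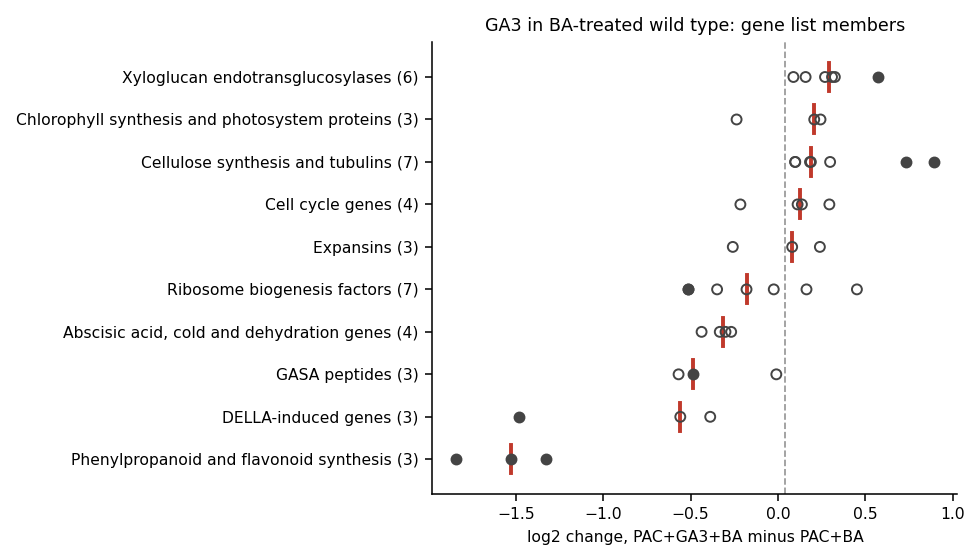
Log2 difference, PAC+GA3+BA minus PAC+BA, for each tested member of the 10 gene lists with at least 3 tested members; filled circles have an unadjusted limma p under 0.05, red bars are list medians and the dashed line is the median over all 9454 probe sets, 0.04. The flavonoid members lie from -1.84 to -1.33, apart from all other members except AT5G50915 among the DELLA-induced genes, at -1.48.

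The type-A response regulators tested read above untreated seedlings in both groups. RR16, a type-A response regulator that cytokinin induces, read 7.40 and 6.66 in PAC+BA and 7.46 and 7.34 in PAC+GA3+BA, against 4.28 and 3.99 in untreated seedlings. The limma interval of its difference with GA3 ran from -0.17 to 0.92. ARR15, of the same family, read 3.74 and 4.40 against 4.63 and 3.65, over 2.59 and 2.71 untreated, with an interval from -0.56 to 0.71. UGT76C2, which glucosylates and so inactivates cytokinins, read 5.23 and 4.95 against 5.25 and 5.04, with an interval from -0.36 to 0.48. The groups overlapped for all 3 genes, and the intervals leave differences of these sizes undecided.

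Ribosome biogenesis factors, which build ribosomes in the nucleolus, had a median of -0.18 over 7 tested, from -0.31 to -0.07 when 1 of the 4 arrays was left out, with 2 lower at an unadjusted limma p under 0.05. AT5G15550 read 5.92 and 5.87 in PAC+BA and 5.29 and 5.46 in PAC+GA3+BA, the latter near the untreated 5.33 and 5.14. Its difference was -0.52 ± 0.16, while the line gave 0.38 without DEX and 0.30 with DEX. The limma test of the difference between wild type with BA and the line without DEX gave -0.90, with an unadjusted p of 0.00202 and an adjusted p of 0.303. AT5G08180 read 8.14 and 8.38 against 7.80 and 7.69, a difference of -0.52 ± 0.19, and the line gave 0.18 and 0.24. The list's median in the line was 0.20 without DEX and 0.22 with it.

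In the other lists no member had an unadjusted limma p under 0.05. Abscisic acid, cold and dehydration genes, 4 tested, were all lower in mean with GA3, from -0.44 to -0.27, and COR15A and COR15B, which encode chloroplast proteins that protect membranes in the cold, gave -0.44 and -0.33. These values turned on single arrays: COR15A came to 0.36 without PAC+BA replicate 2 and to 0.20 without PAC+GA3+BA replicate 2, and COR15B to 0.0026 without the latter. The list's median of -0.32 ranged from -0.50 to -0.13 when 1 of the 4 arrays was left out. Cell cycle genes, 4 tested, gave -0.22 to 0.29, with the mitotic kinase AUR1 at 0.29. The clock gene GI gave 0.04.

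Among the 796 tested probe sets with a gene symbol, 71 had an unadjusted limma p under 0.05 and no overlap, 40 higher and 31 lower, with adjusted p from 0.392 to 0.466. The 12 largest differences each way are described here, a choice made after the values were seen. Genes whose PAC+BA arrays lay close together are given first. SEC15B, a subunit of the exocyst that tethers secretory vesicles to the plasma membrane, read 3.92 and 3.98 in PAC+BA and 4.80 and 4.89 in PAC+GA3+BA. Its difference was 0.89 ± 0.23 (SE), with a limma p of 0.0023 before and 0.392 after adjustment. SWEET16, a sugar transporter of the vacuolar membrane, read 3.85 and 3.93 against 4.59 and 4.64, a difference of 0.72 ± 0.18, and untreated seedlings lay with PAC+BA at 3.76 and 3.85. GSTU27, a glutathione transferase, read 5.99 and 6.01 against 6.83 and 6.89, a difference of 0.86 ± 0.27. For GSTU27 the PAC+GA3+BA level was that of untreated seedlings, 7.04 and 6.76, and the line without DEX gave nearly the same difference, 0.85.

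BIK1, a cytoplasmic kinase that relays signals from immune receptors, read 4.63 and 4.31 in PAC+BA and 5.24 and 5.53 in PAC+GA3+BA, a difference of 0.91 ± 0.32. GTR1, a transporter of glucosinolates, the sulphur-rich defence compounds of this plant family, read 4.98 and 4.57 against 5.25 and 5.90, a difference of 0.80 ± 0.27, or 0.48 without PAC+GA3+BA replicate 2. GH9B8, a family 9 glycosyl hydrolase, the family of plant endoglucanases, read 4.41 and 4.10 against 4.97 and 5.22, a difference of 0.84 ± 0.31. These 3 genes kept differences of 0.60 to 0.75 without PAC+BA replicate 2.

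For PHV and LCR, both regulators of leaf development, PAC+BA replicate 2 weighed more. PHV, a homeodomain factor that specifies the upper leaf face, read 4.84 and 4.17 in PAC+BA and 5.28 and 5.09 in PAC+GA3+BA. Its difference of 0.68 ± 0.22 came to 0.35 without that array and to 1.01 without replicate 1. LCR, an F-box protein of leaf development, read 4.65 and 3.37 against 4.80 and 4.71, and its difference of 0.75 ± 0.30 came to 0.11 without replicate 2. All 24 of these genes kept their sign without any 1 of the 4 arrays, and 16 of them moved by over 1.5 times without PAC+BA replicate 2, 8 without PAC+BA replicate 1 and 1 without PAC+GA3+BA replicate 2.

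**Figure D3:**
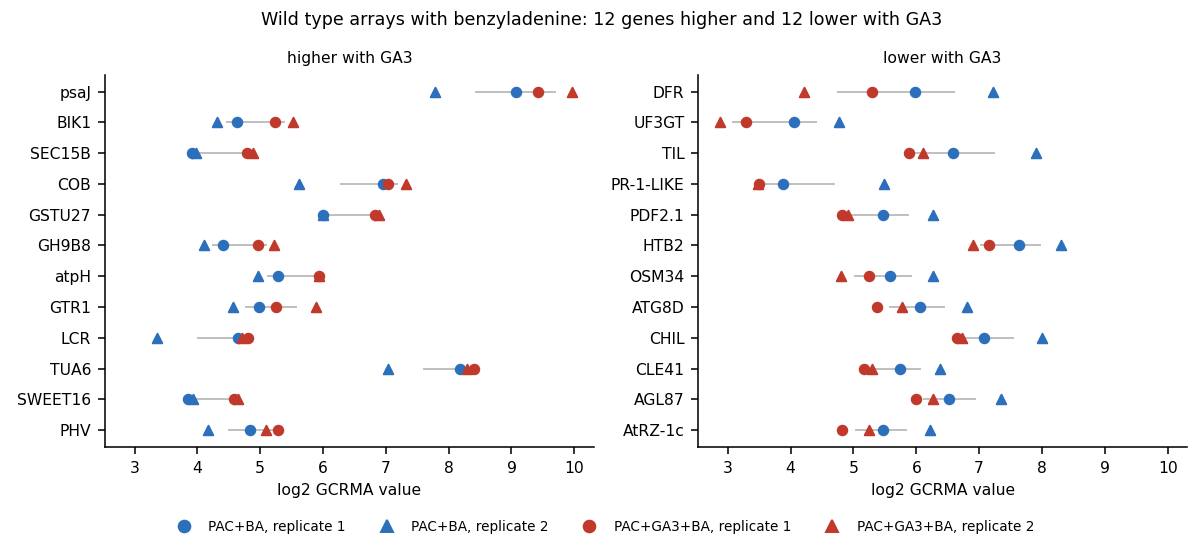
Log2 GCRMA value on each of the 4 arrays for the 12 largest differences in each direction among genes with a symbol; blue is PAC+BA, red is PAC+GA3+BA, circles are replicate 1, triangles replicate 2 and grey lines join the group means. PAC+BA replicate 2 (blue triangle) is the array farthest from the GA3 arrays for most genes, as for LCR at 3.37, while SEC15B, GSTU27 and SWEET16 have both PAC+BA arrays together.

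Among the lower genes, HTB2, a histone H2B, read 7.64 and 8.30 in PAC+BA and 7.16 and 6.91 in PAC+GA3+BA. Its difference was -0.93 ± 0.27, with an unadjusted limma p of 0.00406, while the line gave 0.25 without DEX and 0.33 with DEX. TIL, a lipocalin that protects membranes under heat and oxidative stress, read 6.58 and 7.91 against 5.88 and 6.11, a difference of -1.25 ± 0.44, and the line gave 0.75. The limma test of the difference from the line without DEX gave an unadjusted p of 0.00811 for HTB2 and 0.0072 for TIL, and neither passed adjustment. Without PAC+BA replicate 2 the wild type differences came to -0.60 for HTB2 and -0.59 for TIL. AtRZ-1c, an RNA-binding protein, had the same pattern, at -0.81 in wild type with BA, or -0.43 without PAC+BA replicate 2, and 0.73 in the line.

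OSM34, an osmotin-like protein that accumulates under osmotic stress, read 5.58 and 6.26 in PAC+BA and 5.24 and 4.80 in PAC+GA3+BA, a difference of -0.90 ± 0.28 that came to -0.56 without PAC+BA replicate 2. PR-1-LIKE, named for the pathogenesis-related protein PR-1, read 3.88 and 5.48 against 3.50 and 3.48, so that 1 array carried its difference of -1.20, which came to -0.40 without it. PDF2.1, a plant defensin, read 5.48 and 6.26 against 4.82 and 4.91, a difference of -1.01 ± 0.45 that came to -0.61 in the same way.

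CLE41 encodes a peptide that keeps vascular stem cells dividing. It read 5.73 and 6.37 in PAC+BA and 5.17 and 5.30 in PAC+GA3+BA, a difference of -0.82 ± 0.29 with an unadjusted limma p of 0.0158, and the line gave 0.02 without DEX and -0.03 with DEX. AGL87, a MADS-box factor, read 6.53 and 7.34 against 5.99 and 6.26, a difference of -0.81 ± 0.34. ATG8D, one of the ubiquitin-like proteins that coat autophagosomes, read 6.06 and 6.81 against 5.37 and 5.78, a difference of -0.86 ± 0.31. Without PAC+BA replicate 2 these came to -0.50, -0.40 and -0.49.

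Families of some of these genes were then gathered by symbol, also after the values were seen, so that their counts support nothing and only show whether relatives gave like values. Of the 9 ATG8 proteins tested, 8 had a lower mean with GA3, with a range of -0.86 to 0.04 and a median of -0.36 that came to -0.07 without PAC+BA replicate 2 or PAC+GA3+BA replicate 1. ATG8B read 5.48 and 5.78 in PAC+BA and 5.14 and 5.18 in PAC+GA3+BA, a difference of -0.47 ± 0.15, and the line without DEX gave -0.59. Of 9 defensins tested, 6 had a lower and 3 a higher mean with GA3. The groups did not overlap for 5 lower and 2 higher members, and 3 had an unadjusted limma p under 0.05, all lower. LCR69 read 9.72 and 10.05 against 9.20 and 9.20, a difference of -0.68 ± 0.18. PDF2.5 read 6.98 and 6.95 against 6.77 and 6.07, a difference of -0.55 or, without PAC+GA3+BA replicate 2, -0.20, and the line gave -0.93 without DEX and -0.70 with it. PDF1.2, the jasmonate-responsive defensin, gave 0.18 with an interval from -1.28 to 1.64, and its PAC+GA3+BA arrays read 6.99 and 4.89.

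Of 4 exocyst subunits tested, SEC10 gave 0.55 ± 0.21 beside SEC15B, SEC5A gave 0.36 and EXO84B -0.05. SEC10 came to 0.21, SEC5A to -0.23 and the median of 0.46 to -0.01 without PAC+BA replicate 2. The 4 SWEET transporters tested did not share a direction. SWEET17, like SWEET16 a vacuolar transporter, read 4.66 and 3.92 against 4.85 and 4.97, a difference of 0.62 ± 0.24 that came to 0.25 without PAC+BA replicate 2. SWEET1 read 4.21 and 4.43 against 3.58 and 3.89, a difference of -0.58 ± 0.22, and it gave -0.55 and -0.53 in the line. GH9B7 gave 0.61, or 0.17 without PAC+BA replicate 2, and GH9B13 -0.52 beside GH9B8, so the family 9 glycosyl hydrolases also lay on both sides.

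Larger enzyme families and the WRKY and bHLH factors were matched by gene symbol or synonym, so members without such a name were not counted. Their counts, too, only show whether relatives gave like values. Among the 17 UDP-glycosyltransferases matched by name and tested, UF3GT alone had an unadjusted limma p under 0.05. The number with a higher mean with GA3, 10, became 7 after quantile normalization and 5 after centring on the 75th percentile. Of 7 glutathione transferases, GSTU27 alone had one, and the others gave -0.42 to 0.31. Of 6 cytochrome P450 enzymes, CYP71B26 read 6.03 and 5.94 in PAC+BA and 5.58 and 5.30 in PAC+GA3+BA, a difference of -0.54 ± 0.18 with an unadjusted limma p of 0.0103. The line gave CYP71B26 -0.53 without DEX and -0.42 with DEX, nearly the same difference on other arrays. None of the 4 WRKY and 4 bHLH transcription factors matched by name and tested had an unadjusted limma p under 0.05.

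Probe sets of the plastid genome, which encodes part of the photosystems, the ATP synthase and the plastid gene expression machinery, had a median of 0.19 over 59 tested, and 48 of them had a higher mean with GA3. psaJ, a small subunit of photosystem I, read 9.08 and 7.78 in PAC+BA and 9.43 and 9.96 in PAC+GA3+BA. Its difference was 1.26 ± 0.35, with a limma p of 0.00319 before and 0.407 after adjustment, and it came to 0.61 without PAC+BA replicate 2. atpH, a subunit of the plastid ATP synthase, read 5.29 and 4.96 against 5.93 and 5.94, a difference of 0.81 ± 0.24. These were the 2 plastid probe sets with an unadjusted limma p under 0.05.

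In the line the plastid values lay the other way. There 4 of 59 had a higher mean with GA3 without DEX, with a median of -0.52, and 21 with DEX, with a median of -0.09. The limma test of the difference between wild type with BA and the line without DEX had an unadjusted p under 0.05 for 17 of the 59, all more positive in the wild type, against 4.45% of all probe sets in that direction, and the smallest adjusted p was 0.303. For atpH the line gave -0.68 and the difference of 1.49 had an unadjusted limma p of 0.000692. In the line without DEX, 18 of the 59 were lower with GA3 at an unadjusted limma p under 0.05 and 0 higher. The shares of all probe sets there were 5.14% lower and 10.2% higher. The median plastid level per array did not overlap in that line, at 8.32 and 8.47 in PAC and 7.85 and 8.11 in PAC+GA3. In wild type the level overlapped: it was 7.87 and 7.26 in PAC+BA, 7.46 and 8.21 in PAC+GA3+BA and 7.54 and 8.57 in untreated seedlings. The median difference of 0.19 ranged from 0.02 to 0.43 when 1 of the 4 arrays was left out. Plastid probe sets share a genome and an RNA pool and are not independent of each other.

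**Figure D4:**
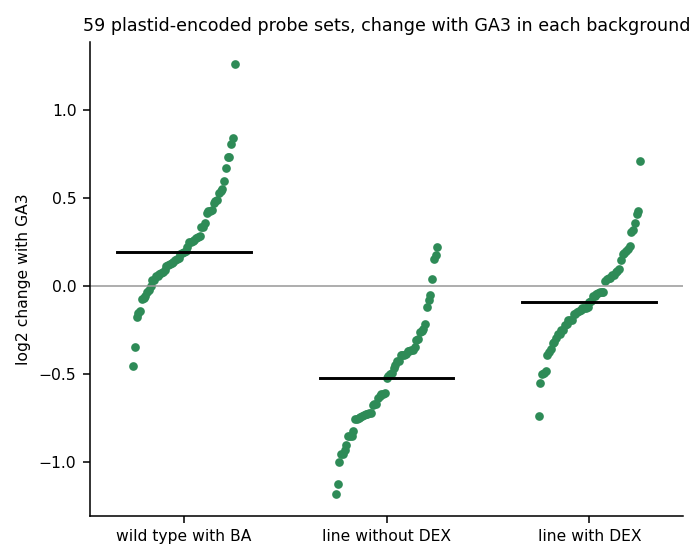
Log2 difference with GA3 of the 59 tested probe sets of the plastid genome in wild type with BA, the line without DEX and the line with DEX; points are probe sets in order of their value and bars are medians. The median is 0.19 in wild type with BA, -0.52 in the line without DEX and -0.09 in the line with DEX.

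The 10 leading probe sets with 1 gene in each direction, ranked by p among those that differed by at least 0.5 without overlap, had adjusted p from 0.115 to 0.392 (limma), and none passed. Their genes carry only locus identifiers in the annotation used here. On the lower side AT5G14650 had the largest difference of all, with 5.17 and 7.04 in PAC+BA and 3.28 and 4.02 in PAC+GA3+BA. The latter lay near the untreated 3.80 and 3.30, and the difference was -2.46 ± 0.46, or -1.52 without PAC+BA replicate 2. Columbia-0 with DEX alone, without PAC or GA3, read 6.00 and 6.48, between the PAC+BA arrays. AT2G19970 read 7.37 and 8.79 against 5.99 and 6.27, a difference of -1.95 ± 0.43, or -1.24 without that array. AT1G79520 read 4.36 and 4.31 against 3.46 and 3.56, the closest replicates among these examples, with a difference of -0.83 ± 0.14.

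All 10 lower genes had the same sign in the line without DEX and 9 with DEX. There 9 and 7 also had an unadjusted limma p under 0.05, against 5.14% and 2.46% of all probe sets. The ranking used p, and the fit gives a probe set the same SE in wild type and line. These counts are thus not independent of the ranking. The line gave AT5G14650 -1.76 without DEX and -2.83 with DEX, and AT2G19970 -1.96 and -1.28. Neither gene's difference between backgrounds had an unadjusted limma p under 0.05.

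On the higher side AT1G14120 read 5.30 and 4.51 in PAC+BA and 6.49 and 6.55 in PAC+GA3+BA, above the untreated 4.58 and 4.73, a difference of 1.61 ± 0.27. AT5G38020 read 5.69 and 4.13 against 6.69 and 7.11, a difference of 1.98 ± 0.50 that came to 1.21 without PAC+BA replicate 2, and untreated seedlings read 2.42 and 2.57. AT2G39110 read 4.48 and 4.57 against 5.21 and 5.56, over 4.02 and 3.95 untreated, a difference of 0.87 ± 0.15. Columbia-0 with DEX alone also read above untreated: AT1G14120 5.51 and 6.24, AT5G38020 5.94 and 7.28, AT2G39110 4.58 and 4.45. For 8 of the 10 higher genes the mean without GA3 was the closer one to untreated seedlings, and for the lower genes 5 of 10.

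Of the higher genes 9 of 10 had the same sign in the line without DEX and 6 with DEX, and 2 and 4 had an unadjusted limma p under 0.05 as well, against 10.2% and 7.34% of all probe sets. Their median difference was 0.84 in wild type with BA and 0.24 and 0.32 in the line, and the lower genes had medians of -0.90 and -0.89 in the line; the contrast between the 2 directions was not tested. AT2G39110 gave -0.07 without DEX and -0.06 with DEX. Its differences between backgrounds, 0.93 and 0.92, had unadjusted limma p of 0.000777 and 0.000839, and AT1G14120 gave 1.39 with 0.00329 and 0.93 with 0.0315. None of these passed adjustment. Since these genes were ranked on the wild type arrays, the wild type sizes are a selection and the line sizes are not. The line p-values share their SE with that ranking, so counts of small p in the line are not independent of it.

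Over all probe sets, GA3 in the line without DEX gave 11 calls, 0.116%, and with DEX 0 calls by limma, where 927 probe sets, 9.81%, had an unadjusted p under 0.05. The test of the difference between backgrounds gave 0 calls against the line without DEX (limma, 1229 or 13% with an unadjusted p under 0.05, smallest adjusted p 0.303). It gave 0 calls against the line with DEX (limma, 853 or 9.02%, smallest adjusted p 0.553). Across the 9454 probe sets the differences in wild type with BA correlated with those in the line at a Pearson r of 0.02 without DEX and 0.09 with DEX, while those of the line without and with DEX correlated at 0.66. These are descriptions over probe sets, which share arrays and are not independent replicates. Genotype and BA differed together between wild type and line, and so did DEX where the line received it. Their parts cannot be told apart. The series holds no wild type array with PAC but no BA.

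Named genes with small p-values for a difference between backgrounds included the following, whose estimates had opposite signs in the wild type and the line. UBC27, a ubiquitin-conjugating enzyme, read 5.95 and 6.62 in PAC+BA and 5.85 and 5.78 in PAC+GA3+BA, and 6.09 and 5.30 in the line with PAC against 7.13 and 7.20 with PAC+GA3. The difference between backgrounds was -1.94, with a limma p of 0.000259 before and 0.303 after adjustment. AT1G26750 gave -0.80 in wild type with BA and 0.55 in the line without DEX, and AT3G01210 gave 0.58 and -0.52. Against the line with DEX, PRA1.B6, a member of the PRA1 family of membrane-trafficking proteins, gave 0.63 in wild type with BA and -0.29, a difference of 0.92 with an unadjusted limma p of 0.00132.

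**Figure D5:**
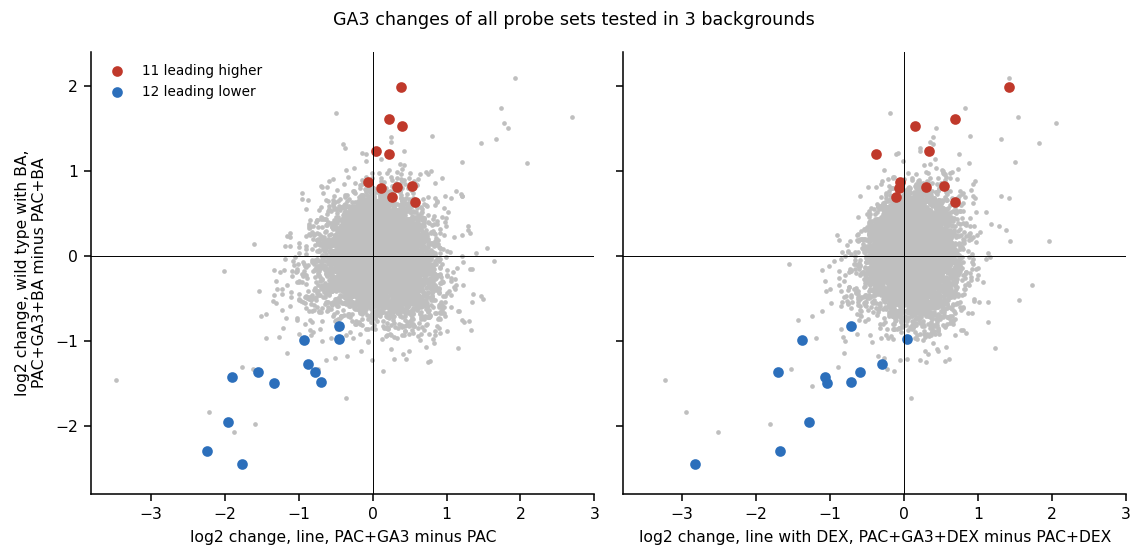
Log2 difference with GA3 in wild type with BA (vertical axis) against that in the line without DEX (left) and with DEX (right), one point per probe set tested; coloured points are the called and leading named probe sets, 11 higher and 12 lower. The 12 lower points all lie at negative values in the line without DEX, and 10 of the 11 higher points lie at positive values there, with a median of 0.26.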

How the data were processed

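The authors deposited 1 table of log2 values for 16 Affymetrix ATH1 arrays. The submitters' processing notes name GCRMA, a method that subtracts background, normalizes the arrays together and summarises the probes of each set, with its version not given in the sources used here. Array medians were 3.08 to 3.12, and 0 columns belonged to no sample. The number of arrays limits the precision.

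The table held 22810 probe sets. The 64 Affymetrix controls were left out, and tests ran on the 9454 that reached a log2 value of 4 on 2 or more arrays. Of these, 4925 had 1 gene in the platform's annotation table, and only those were named. Names came from that table, updated through NCBI gene identifiers. The means of 8 groups were estimated from all 16 arrays without a covariate in limma 3.58.1 under R 4.3.3 (functions lmFit, contrasts.fit and eBayes), which left 8 degrees of freedom for the residual, to which the prior added 4.66. Tests were two-sided, with Benjamini-Hochberg adjustment over all probe sets tested and calls at an adjusted p under 0.05. The script was tested on simulated data. Plots were made in Python 3.11.15 using matplotlib 3.10.9.

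Genes were named by rule: leading differences by p in each direction, up to 4 members of each list or family by p, all tested members of the gibberellin, DELLA, GASA and type-A lists, and the smallest p for each difference between backgrounds. Of 404 genes in the lists, 87 are named on a probe set, and 55 of those were tested. Members and lists were chosen with earlier results of these data known. The 12 symbol-bearing genes per direction, and families of some of these genes gathered by symbol, were added after the values were seen. Alternatives tried were quantile normalization, centring on the 75th percentile, no filter or a higher floor of 6, trend and robust eBayes, the replicate number as a block, fewer arrays in the fit and each array left out. A Z test was also run, since the study's methods name Z-scores with a p threshold but not which values were standardised; here it divides each standardised difference by its spread over probe sets and calls beyond 1.96.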

Additional observations from a re-analysis of the deposited data

How the results depend on the processing

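The count of 3 calls for GA3 in wild type with BA became 51 with no filter on dim probe sets, which held the 3, 0 with a floor of 6, 0 with only the arrays of the 2 groups, 0 with only wild type arrays, 481 by the Z test, and 0 to 173 when an array was left out. For the line without DEX, 11 became 35 with no filter, 7 with the floor of 6, 17 after quantile normalization, 0 with only its own arrays, 493 by the Z test and 1 to 6 when an array was left out. For the line with DEX, 0 became 69 with no filter, 419 by the Z test and 0 to 2 when an array was left out. For the differences between backgrounds, 0 became 30 and 43 with no filter and 533 and 483 by the Z test. Other settings, the replicate block apart, kept each count within 1.5 times.

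Same-numbered arrays did not deviate together throughout, with correlations from -0.33 to 0.48 and 21 of 28 pairs of groups over 0.1, so the numbers were not taken to pair the samples, though they may in part. With the replicate number as a block, 3 were called in wild type with BA, 19 in the line without DEX, 1 in the line with DEX and 0 for both differences.

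Probe set 257008_at had adjusted p of 0.077 with the floor of 6 and 0.0743 after quantile normalization (limma). The median of the expansins came to -0.33 without PAC+BA replicate 1. Across settings, 56 of 1953 values of named genes and probe sets changed sign, 83 passed the threshold and 17 lost it. The 56 belonged to 33 genes, all with an unadjusted limma p of 0.268 or more as reported, and 47 arose when an array was left out. In that way AT5G59845 (-0.29 to 0.27), EXLA1 (-0.33 to 0.49), ARR15 (-0.42 to 0.56), RCA (-0.16 to 0.15), AT5G64120 (-0.33 to 0.082), AT2G44060 (-0.13 to 0.46), WRKY53 (-0.17 to 0.47), EXO84B (-0.34 to 0.24), EXPB3 (-0.58 to 0.059), TUB7 (-0.012 to 0.38), UGT76C2 (-0.082 to 0.20), AUR2 (-0.12 to 0.40), AT5G14520 (-0.17 to 0.50), COR15A (-1.23 to 0.36), GI (-0.21 to 0.28), DECOY (-0.24 to 0.0203) turned. So did PRXR1 (-0.17 to 0.24), AT2G46140 (-0.27 to 0.20), WRKY6 (-0.49 to 0.064), WRKY20 (-0.33 to 0.19), SEC5A (-0.23 to 0.95), PRL (-0.026 to 0.25), PDF1.2 (-0.87 to 1.22), COR47 (-0.55 to 0.0105), HON4 (-0.19 to 0.081), AQI (-0.035 to 0.17), bHLH121 (-0.16 to 0.13), bHLH104 (-0.19 to 0.16), PDF1.2b (-1.45 to 0.40), COR15B (-0.67 to 0.0026), Prx37 (-0.71 to 0.31), ILR3 (-0.17 to 0.026) and SWEET11 (-0.0049 to 0.073). UGT76C2 came to -0.0028 after quantile normalization and -0.0054 after centring on the 75th percentile, GI to -0.034 and -0.0296, and -0.037 by the Z test. RCA came to 0.077 after quantile normalization and 0.274 by the Z test, and PRXR1 and SWEET11 to -0.034 and -0.031 after centring. Quantile normalization and centring on the 75th percentile kept the sign of the median of each list described here, while those of the UDP-glycosyltransferases and glutathione transferases, near 0, turned. Of the 51 calls with no filter, 6 were among the 9454, and the others had a median highest value of 2.61, near the arrays' floor of 2.36. The smallest changes that 2 arrays per group can show are limited by an interval of 0.44 to each side, 0.62 for a difference between backgrounds.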
